A study of Bos taurus with 96 samples.

Results

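Wagyu x Angus steers were set against Hereford steers over 5 fat depots. The comparison rests on 40 of the 96 arrays of the series, 20 labelled Wagyu x Angus and 20 labelled Hereford, with 4 arrays of each breed per depot. The depots were omental fat (Omen), kidney fat (Kid), fat between muscles (Inter), subcutaneous fat over the rump (SC) and intramuscular fat dissected from the longissimus dorsi (IMF). The arrays were chosen by these labels alone, and no measured value entered the choice. A further 20 fat arrays from Angus steers shared the fit, and their values are given beside the others. All 60 fat samples carry the pasture label, and the methods describe steers kept on pasture after weaning and then grain fed for 259 days in a feedlot and slaughtered at an age of about 26 months (the labels give the 259 days as the age). The Wagyu x Angus animals are crossbred, so that no pure Wagyu was measured. By the methods 5 steers of each breed, some with a sire in common, gave all depots, and the RNA samples of best integrity and purity were hybridised. The 20 arrays of a breed are thus from at most 5 animals, and counts of arrays below are not counts of animals. The depots therefore share steers, and the labels do not tie arrays to animals. P-values across depots are too small for that reason. Within a depot the 4 arrays of a breed are from different animals, but the spread used in those tests comes from all 60 fat arrays.

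Wagyu cattle are known for fine fat within the muscle and for a soft fat rich in monounsaturated fatty acids, and the Hereford is a British beef breed that lays down more of its fat outside the muscle. Bovine adipocytes make fatty acids in the fat itself, from acetate and glucose. They elongate and desaturate these, and store them as triacylglycerol in droplets that are coated by perilipins and enlarged by CIDE proteins. Breeds also differ in gene sequence, most of all in the major histocompatibility complex, the family of antigen-presenting proteins that is among the most variable in the genome.

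Each sample was read on an array of its own, in 1 colour, and a value below is log2 of the background-subtracted spot signal minus the 75th percentile of that array, so that 0 is the brightness of that percentile and a difference of 1 is a doubling. The arrays of both breeds were similarly bright. Between 87.0% and 98.6% of probes were well above background on a Hereford array and between 88.9% and 99.5% on a Wagyu x Angus array, with the lowest medians in SC (92.2% and 90.2%). The adipocyte markers, 11 genes such as ADIPOQ and PLIN1, averaged between 2.52 and 5.52 on the 40 arrays. Every IMF array also held skeletal muscle RNA, with a mean of 12 fibre markers from 6.14 to 7.88 in Hereford and from 6.29 to 7.99 in Wagyu x Angus. In Inter, 2 Wagyu x Angus arrays stood at 2.16 and 5.84 for these markers against -3.60 to -1.72 in Hereford, and 1 Hereford SC array averaged 4.36 for 9 smooth muscle markers where its group was otherwise at most at 1.79.

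Across the 5 depots 1198 of 34227 probes differed between the breeds at an adjusted p under 0.05 (limma, Benjamini-Hochberg), which is 3.5% of all tested. Wagyu x Angus was higher at 585 probes (1.71%) and lower at 613 (1.79%), and the median difference of all probes was -0.02. Most differences were small. Their median size was 0.435, and only 101 exceeded 1, of which 51 were higher and 50 lower in Wagyu x Angus. At 1008 of the 1198 the sign was the same in all 5 depots, against 13.3% of all probes. The 4 arrays of one breed did not overlap the 4 of the other in exactly 4 depots at 21 of the called probes and in all 5 depots at 4 of them, against 0.0614% and 0.0117% of all probes. There was no such depot at 270 of the called probes (76.7% of all probes), 1 at 523 (20.5%), 2 at 291 (2.44%) and 3 at 89 (0.318%). In single depots the breeds did not overlap at 10.5% of all probes in IMF, 6.98% in SC, 4.67% in Inter, 2.6% in Kid and 4.83% in Omen. These shares are a description, since the sign and the call come from the same arrays. Within 1 depot far fewer probes were called, with 668 in IMF (1.95% of those tested), 36 in Kid (0.105%), 5 in Inter (0.0146%), 3 in SC (0.00877%) and 1 in Omen (0.00292%).

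**Figure D1:**
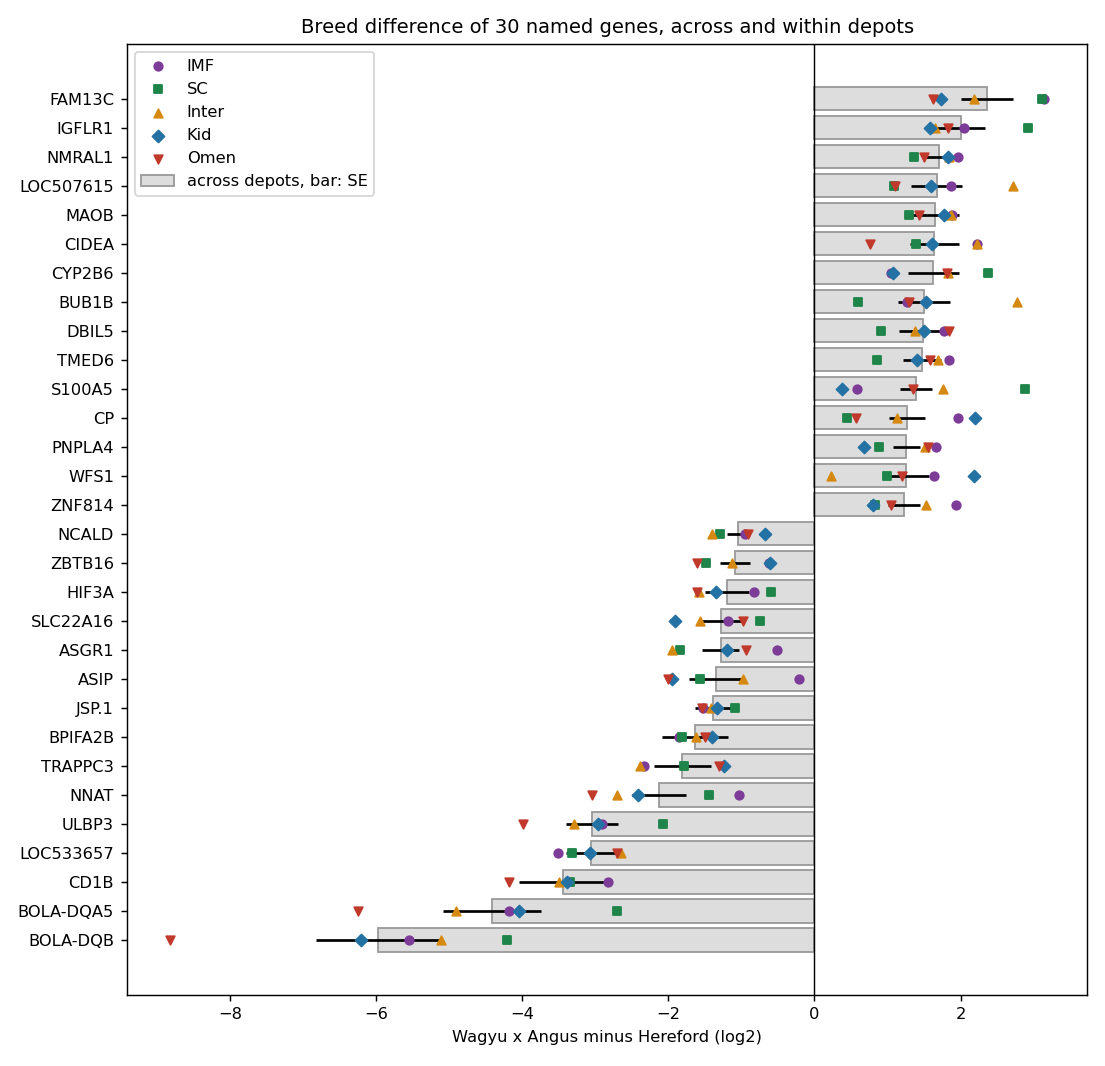
Wagyu x Angus minus Hereford difference (log2) for the 15 named genes most higher and the 15 most lower in Wagyu x Angus. Grey bars give the difference across depots with its standard error, and symbols the difference in each depot (4 arrays against 4). All symbols of a gene lie on the side of its bar, because genes were chosen for the same sign in all 5 depots.

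Several genes of immune recognition were among the 15 with the largest negative differences, a grouping that was not tested. BOLA-DQB, the beta chain of a class II molecule that presents peptides to helper T cells, was read by a probe that was well above background on 15 of 20 Hereford arrays but on 2 of 20 Wagyu x Angus arrays. It was called lower (adjusted p = 4.66e-06), and its fitted log2 difference of -5.98 ± 0.85 (SE) is mostly against background and so no measure of size. With normexp correction and quantile normalization it was -2.95, and called as well. In Omen the Hereford arrays were at -0.59, 0.04, 0.66 and 0.76 and the Wagyu x Angus arrays at -9.80, -9.39, -8.95 and -6.24. In Kid the Hereford arrays were at -8.26, 0.34, 0.49 and 1.22 and the Wagyu x Angus arrays at -8.70, -8.50, -7.01 and -6.85. The Hereford samples were thus either bright or near background, and the low ones reached the level of the Wagyu x Angus samples in IMF, Inter and Kid. No Wagyu x Angus array was well above background in IMF, SC or Kid, which allows only a bound there, with Hereford at least 13.9-fold higher in IMF, at least 4.17-fold in SC and at least 39.2-fold in Kid. Angus arrays spread over the whole range, from -9.46 to 0.71.

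The partner chain BOLA-DQA5 was also lower in Wagyu x Angus (-4.42 ± 0.67 SE, adjusted p = 1.65e-05). It was well above background on 10 of 20 Wagyu x Angus and 18 of 20 Hereford arrays, so that the size depends on the processing, and it was -2.19 with normexp correction and quantile normalization. Hereford ranged from -8.37 to 0.59 with a median of -1.16, and Wagyu x Angus from -9.13 to -4.41 with a median of -6.49. Of the 19 genes measured in the list of major histocompatibility and antigen presentation genes, classes I and II together, 0 were higher and 1 lower by their brightest probe, where 1.71% and 1.79% of all probes were, and 4 had a called probe. The list median was -0.12, and 3 of 19 differences were positive against 45.2% of all probes. The list was drawn up with earlier results of these data known, as all lists here were. A second, brighter probe of BOLA-DQB differed by only -0.19 (adjusted p = 0.60), BOLA-DRA, the alpha chain of the DR class II molecules, by 0.12, and CD74, the invariant chain that escorts class II molecules, by -0.04. Of 3 probes of JSP.1, a class I gene, 1 was lower by 1.38 (adjusted p = 0.00037), while the other two differed by -0.12 and -0.08. Such genes have close copies and many alleles, and whether a probe reads one allele or the amount of RNA was not tested.

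ULBP3, a surface ligand that activates natural killer cells through NKG2D, was lower in Wagyu x Angus on both of its probes, by -3.05 ± 0.36 (SE, adjusted p = 8.36e-08) and -2.01 ± 0.43. On the first probe the 20 Wagyu x Angus arrays lay within a narrow band from -4.26 to -2.68, with a median of -3.55. The Hereford arrays ranged from -3.55 to 1.42 with a median of -0.15, and 19 of 20 were above every Wagyu x Angus array. Breeds did not overlap in 4 depots, and in Kid a single Hereford array at -3.55 fell among the Wagyu x Angus values of -4.26 to -3.52. Most Angus arrays were as low as Wagyu x Angus, with a median of -3.32.

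LOC533657, listed in RefSeq with the synonym GBP6 and thus one of the interferon-induced guanylate-binding proteins, was lower on all 3 of its probes, by -3.05 ± 0.35 (SE, adjusted p = 5.95e-08), -2.09 ± 0.27 and -1.59 ± 0.23. In IMF the 4 Hereford arrays were at -0.67, -0.29, -0.23 and -0.13 and the 4 Wagyu x Angus arrays at -4.42, -3.81, -3.68 and -3.45. The groups were also apart in SC, Inter and Kid, and in Omen a Hereford array at -4.69 fell among the Wagyu x Angus values of -5.45 to -3.63. Angus, with a median of -4.15, was close to Wagyu x Angus.

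CD1B presents lipids rather than peptides to T cells. Of its 4 probes, the first was lower by -3.45 ± 0.60 (SE, adjusted p = 0.00016), a second by -1.74 ± 0.44, and the other two differed by -0.94 and -0.80 without passing the threshold. Here the split ran within Wagyu x Angus. In IMF its arrays were at -6.53, -5.90, -5.84 and -0.75, in SC at -4.42, -4.23, 0.92 and 1.02, and in Kid at -5.29, -4.90, -0.59 and 1.45. The Hereford arrays lay between -2.28 and 4.58 and the Angus arrays had a median of 0.82. In all, 12 of 20 Wagyu x Angus arrays were below every Hereford array, and the rest lay within the Hereford range, so that the mean difference describes no single animal.

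**Figure D2:**
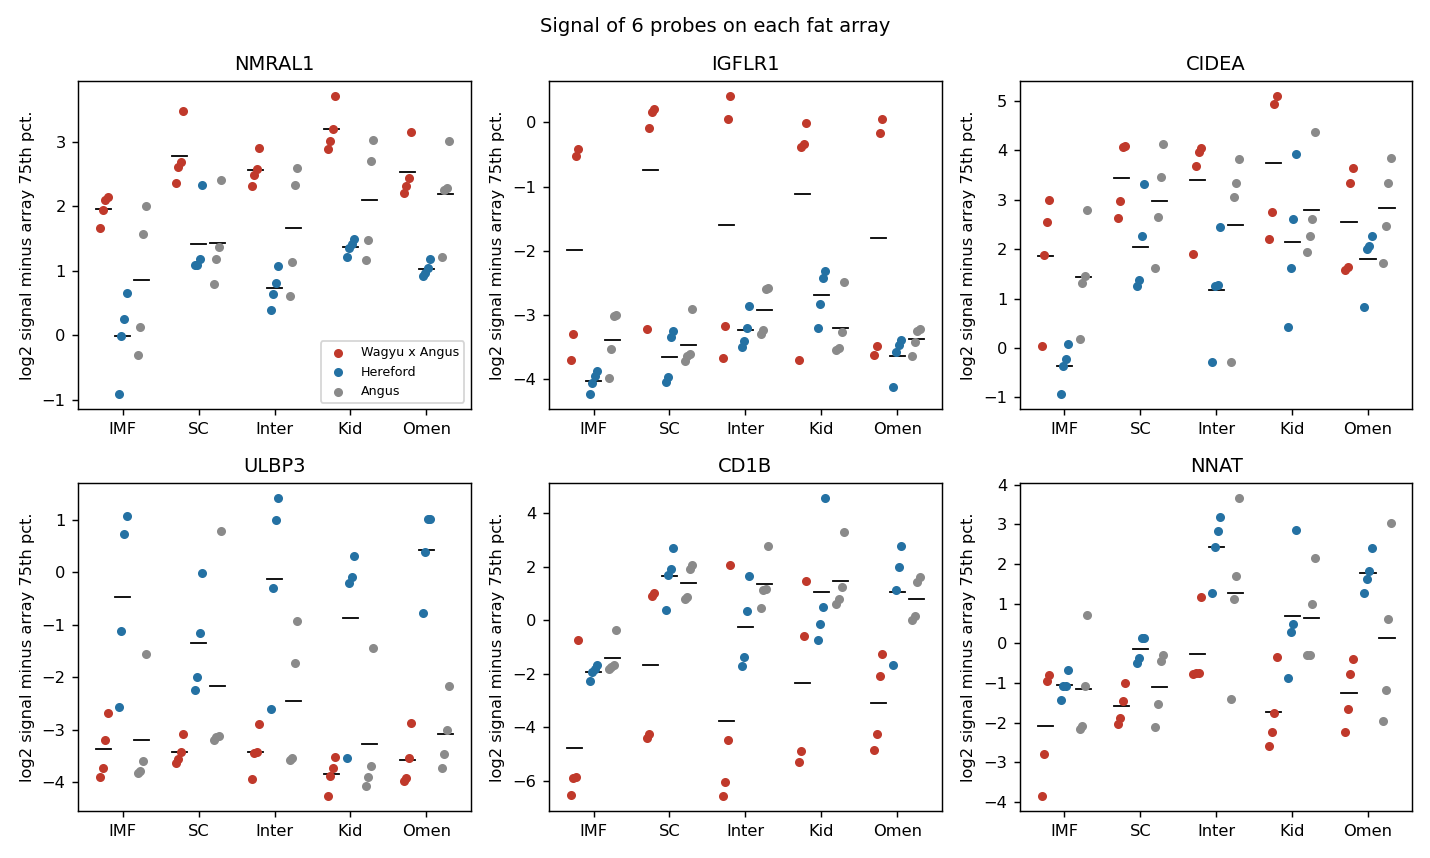
Log2 signal minus the 75th percentile of the array for 6 probes on each of the 60 fat arrays, by depot and breed. Points are arrays and lines are means of 4. NMRAL1 is apart between Wagyu x Angus and Hereford in all 5 depots, IGFLR1 and CD1B take 2 levels within Wagyu x Angus, and ULBP3 is low on every Wagyu x Angus array.

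Among genes higher in Wagyu x Angus, NMRAL1 was the steadiest. It encodes a protein that senses the ratio of NADPH to NADP. All 4 of its probes were higher, by 1.70 ± 0.19 (SE, adjusted p = 1.17e-08), 1.32 ± 0.16, 0.41 ± 0.09 and 0.39 ± 0.09. On the first probe Kid read 2.89, 3.01, 3.20 and 3.71 in Wagyu x Angus and 1.22, 1.36, 1.42 and 1.50 in Hereford, and IMF read 1.67, 1.94, 2.09 and 2.15 against -0.92, -0.02, 0.26 and 0.65. It was one of the 4 probes without overlap in any depot, and the difference ranged from 1.37 in SC to 1.97 in IMF. Angus arrays fell at both levels and between them, with a mean of 1.65 against 2.61 in Wagyu x Angus and 0.91 in Hereford. The other probes apart in all 5 depots were LOC616948 (-0.74 ± 0.10 SE) and a pair without a gene name here.

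IGFLR1, a receptor of the tumour necrosis factor receptor family that binds IGF-like proteins, was higher by 2.0 ± 0.33 (SE, adjusted p = 7.85e-05). In SC the Wagyu x Angus arrays were at -3.22, -0.08, 0.17 and 0.20 and the Hereford arrays at -4.04, -3.96, -3.35 and -3.25. In Inter they were at -3.67, -3.17, 0.04 and 0.41 against -3.49, -3.41, -3.19 and -2.86. The gene thus had 2 levels in Wagyu x Angus, with 12 of 20 arrays above every Hereford array and 8 at the Hereford level, and the lower level alone in Hereford and in Angus, whose median was -3.27. FAM13C was higher by 2.36 ± 0.35 (SE, adjusted p = 1.27e-05) on 1 of 5 probes, while the others differed by -0.15 to 0.01. On that probe Wagyu x Angus ranged from -3.90 to 0.35 with a median of -1.09, and Hereford from -6.73 to -1.57 with a median of -3.42.

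CIDEA, which fuses lipid droplets into larger ones, and MAOB, a mitochondrial enzyme that oxidises amines, were both higher. For CIDEA 2 of 4 probes were higher, by 1.64 ± 0.34 (SE, adjusted p = 0.0018) and 1.64 ± 0.33, and the other two, one of them brighter, differed by 0.17 and 0.20. In IMF the Wagyu x Angus arrays read 0.03, 1.87, 2.55 and 2.99 and the Hereford arrays -0.94, -0.37, -0.22 and 0.08 on the first of these probes. The lowest Wagyu x Angus array there was just below the highest Hereford array, and the breeds overlapped in every other depot as well. All 3 probes of MAOB were higher, by 1.65 ± 0.33 (SE, adjusted p = 0.0013), 1.65 ± 0.31 and 1.62 ± 0.34. Wagyu x Angus ranged from -1.39 to 2.31 with a median of 0.68, and Hereford from -3.73 to 1.25 with a median of -1.28. IMF was the depot in which the MAOB groups did not overlap.

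The other genes of the 15 with the largest positive differences lay between 1.23 and 1.67. They were 2 cytochrome P450 genes, LOC507615 (a CYP4F2 synonym, 1.67 ± 0.35 SE) and CYP2B6 (1.63 ± 0.35), the copper carrier and ferroxidase CP (1.26 ± 0.25), the retinyl ester and lipid hydrolase PNPLA4 (1.26 ± 0.18, both probes called), the calcium-binding S100A5 (1.39 ± 0.22, 3 of 3 probes), WFS1 of the endoplasmic reticulum membrane (1.25 ± 0.31), the vesicle transport gene TMED6 (1.47 ± 0.26), the acyl-CoA binding DBIL5 (1.48 ± 0.33), the zinc finger gene ZNF814 (1.23 ± 0.22, both probes) and the mitotic checkpoint kinase BUB1B (1.49 ± 0.36, 1 of 2 probes). LOC507615, BUB1B and DBIL5 were dim. Their probes were well above background on 16, 17 and 15 of 20 Wagyu x Angus arrays and on 9, 7 and 8 of 20 Hereford arrays. With normexp correction and quantile normalization their differences were 0.53, 0.21 and 0.21, and those of BUB1B and DBIL5 missed the threshold. BUB1B also missed it in the deposited value table (0.79) and without Inter, and BUB1B and LOC507615 with slide as a fixed term.

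Among the other genes with the largest negative differences, NNAT, the imprinted gene of a small endoplasmic reticulum protein known from brain, pancreas and fat, was lower on all 3 probes, by -2.13 ± 0.37 (SE, adjusted p = 0.00016), -2.11 ± 0.36 and -1.99 ± 0.34. In Omen the Hereford arrays read 1.27, 1.63, 1.83 and 2.42 and the Wagyu x Angus arrays -2.22, -1.66, -0.77 and -0.38. The groups were also apart in SC and in Inter, and overlapped in IMF, where the difference was -1.03. ASIP, the agouti protein that blocks melanocortin receptors, was lower by -1.34 ± 0.38 (SE, adjusted p = 0.030), with a range from -6.06 to -0.11 in Wagyu x Angus and from -2.23 to 0.95 in Hereford. HIF3A, a hypoxia-inducible factor subunit, was lower on all 3 probes (-1.19 ± 0.30, -1.12 ± 0.30 and -0.59 ± 0.15), as was ZBTB16, a zinc finger repressor, on 1 of 2 (-1.09 ± 0.21). The remainder were the glycoprotein receptor ASGR1 (-1.29 ± 0.26), the carnitine transporter SLC22A16 (-1.28 ± 0.28, 1 of 3 probes), the calcium sensor NCALD (-1.05 ± 0.15, 2 of 5 probes), the vesicle tethering subunit TRAPPC3 (-1.81 ± 0.39, 1 of 2 probes) and BPIFA2B (-1.64 ± 0.45, 2 of 4 probes). TRAPPC3 and BPIFA2B were well above background on 11 and 6 of 20 Wagyu x Angus arrays.

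Some of these 30 values depend on the processing. With normexp correction and quantile normalization TRAPPC3 differed by -0.43, BPIFA2B by -0.39 and SLC22A16 by -0.51, and PNPLA4 (0.66), ZNF814 (0.62), ZBTB16 (-0.61), CD1B (-2.29) and LOC533657 (-2.03) were also smaller by a factor above 1.5, all but BPIFA2B still past the threshold. The calls of ASIP and BPIFA2B were each lost in 8 of 59 alternatives, ASIP without SC, Inter, Kid or Omen and BPIFA2B without IMF, SC or Omen. HIF3A missed the threshold without IMF, Inter or Omen, WFS1 without SC or Kid, and CYP2B6 without SC. With slide as a fixed term 8 of the 30 missed the threshold, among them ASGR1 (adjusted p = 0.061), SLC22A16 (0.097), BPIFA2B, LOC507615 and BUB1B. BOLA-DQB also passed it, as did the differences of ULBP3 (-3.08), LOC533657 (-3.06), CD1B (-3.48), NMRAL1 (1.62), IGFLR1 (2.0), NNAT (-2.35) and MAOB (1.46), whereas those of CIDEA (1.32, adjusted p = 0.10), ASIP (-1.58, 0.054) and HIF3A (-1.07, 0.12) did not.

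Genes of fatty acid synthesis, elongation and desaturation leaned towards Wagyu x Angus. Of 22 measured members 4 were higher and 0 lower, where 1.71% and 1.79% of all probes were, with a median difference of 0.40 against -0.02 for all probes, and 20 of 22 were positive against 45.2% of all probes. The 4 were the elongase ELOVL5 (0.88 ± 0.20 SE, adjusted p = 0.0051), the NADPH-making enzymes ME1 (0.87 ± 0.23) and IDH1 (0.72 ± 0.19), and SCAP (0.53 ± 0.10), the escort of the sterol-regulated transcription factors. Of 3 probes of SCAP another was called lower, so that its direction depends on the probe. For IDH1 the study's paper reports no registered expression in its fat data, a discrepancy not resolved here. With slide as a fixed term ELOVL5 (0.72, adjusted p = 0.12), ME1 (0.82, 0.11) and IDH1 (0.73, 0.097) missed the threshold, and ME1 and IDH1 missed it without IMF, SC or Omen. For ELOVL5 the IMF arrays read 2.37, 2.59, 3.35 and 3.62 in Wagyu x Angus and 0.82, 1.57, 1.80 and 2.49 in Hereford, and those of Omen 3.90, 4.04, 4.06 and 4.94 against 2.83, 2.89, 3.42 and 3.77. Only Omen was without overlap. The desaturase SCD was called on 3 of 7 probes, but not on its brightest (0.53 ± 0.19, adjusted p = 0.10), which passed in IMF alone (1.64, adjusted p = 0.021). ACACA, ACLY and FASN, the core of the pathway, had differences of 0.60, 0.14 and 0.46 with adjusted p from 0.14 to 0.58. By depot the list median was 0.91 in IMF, 0.42 in Inter, 0.38 in Kid, 0.34 in Omen and 0.03 in SC. The adipocyte markers had medians of 0.89, 0.02, 0.31, 0.01 and -0.11 in the same order, and their part in the result was not tested.

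**Figure D3:**
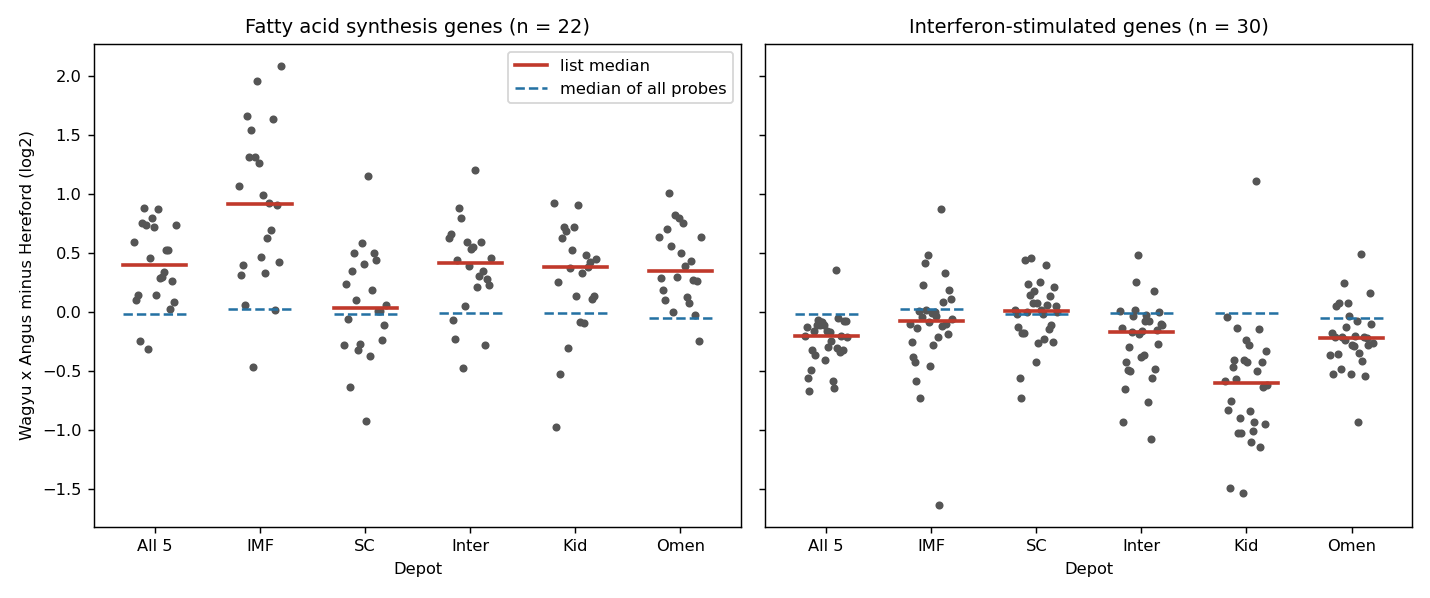
Wagyu x Angus minus Hereford difference (log2) of each member of 2 gene lists, across depots and in each depot. Red lines are list medians and dashed blue lines the median of all probes. The fatty acid synthesis list has its highest median in IMF and its lowest in SC, and the interferon-stimulated list its lowest in Kid (-0.60).

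Other lipid lists held few calls, to be read beside the 1.71% of all probes called higher and 1.79% called lower. In fatty acid uptake 3 of 17 genes were higher, the lipoprotein lipase inhibitor ANGPTL4 (0.47 ± 0.12 SE), the caveolar coat gene CAV1 (0.46 ± 0.12) and the lipoprotein receptor VLDLR (0.47 ± 0.14), and 1 was lower, the acyl-CoA synthetase ACSL1 (-0.62 ± 0.18, 4 of 6 probes called). VLDLR missed the threshold in 30 of 59 alternatives, quantile normalization and 21 arrays left out singly among them. The cholesterol list had LSS as 1 of 22 higher (0.51 ± 0.14), and the beta-oxidation list ACADM as 1 of 22 (0.37 ± 0.10). Of 15 genes of triacylglycerol synthesis and 19 of lipolysis and the droplet coat 0 passed the threshold by their brightest probe, although CIDEA, of the latter list, did on 2 others, with medians of -0.01 and 0.17. The nearest were GPAM (0.65 ± 0.21, adjusted p = 0.066) and PLIN2 (0.46 ± 0.15, adjusted p = 0.082). The lists of adipogenic transcription factors (22 genes), adipokines (21) and brown fat genes (16, CIDEA among them) also held 0 calls by the brightest probe, with medians from 0.01 to 0.13. In the insulin-like growth factor list the binding protein IGFBP5 was higher on 4 of 4 probes (0.86 ± 0.17, adjusted p = 0.0010), and the receptor IGF1R (-0.54 ± 0.13) and the carrier IGFALS (-0.56 ± 0.16) were lower. The detoxifying reductase NQO1 was higher on both probes (0.61 ± 0.14). Of the collagens COL6A2 was higher (0.33 ± 0.10) and COL15A1 lower (-0.45 ± 0.11). IGFALS and COL6A2 missed the threshold in 18 and 22 of 59 alternatives. With slide as a fixed term ANGPTL4, CAV1, VLDLR, LSS, ACADM, IGF1R, IGFALS, COL6A2 and COL15A1 missed it, with adjusted p from 0.098 to 0.37, while ACSL1, IGFBP5 and NQO1 passed. ACSL1 was lost in 9 of 59 alternatives, among them without SC, Inter or Omen, and NQO1 without IMF or SC. ACADM was lost without any one of the 5 depots, LSS without IMF, SC, Inter or Omen, ANGPTL4 and COL15A1 without IMF, SC or Inter, CAV1 without IMF or SC, and IGF1R without SC.

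Interferon-stimulated genes leaned the other way across depots, though not in SC. Of 30 measured genes 4 were lower and 0 higher in Wagyu x Angus, where 1.79% and 1.71% of all probes were. The median was -0.20, and 1 of 30 differences was positive against 45.2% of all probes. By depot 15 of 30 were positive in SC, 11 in IMF, 6 in Inter, 6 in Omen and 1 in Kid. The 4 were EPSTI1 (-0.56 ± 0.16 SE, adjusted p = 0.034), GBP5 (-0.49 ± 0.14), HERC5 (-0.33 ± 0.09) and IRF9 (-0.29 ± 0.08, 1 of 3 probes), the last a subunit of the factor that turns these genes on. EPSTI1 was apart in Inter alone, at 0.07, 0.35, 0.54 and 0.79 in Wagyu x Angus and 1.15, 1.32, 1.44 and 1.57 in Hereford. In Kid it read 0.48, 0.68, 0.96 and 0.98 against 0.56, 0.75, 2.01 and 3.12. The list median was -0.60 in Kid, -0.22 in Omen, -0.17 in Inter, -0.07 in IMF and 0.01 in SC. The Hereford Kid arrays at 2.01 and 3.12 for EPSTI1 were also the highest of their group in macrophage markers (3.12 and 3.65, the other two 1.14 and 1.91, Wagyu x Angus 1.93 to 2.84) and the lowest in adipocyte markers (4.46 and 3.92, the other two 5.52 and 5.17, Wagyu x Angus 4.89 to 5.21), and their part in the result was not tested. All 4 calls were lost with slide as a fixed term (adjusted p from 0.15 to 0.32), where the differences were -0.45 for EPSTI1, -0.49 for GBP5, -0.28 for HERC5 and -0.23 for IRF9. EPSTI1 and HERC5 also missed the threshold without any one of the 5 depots, GBP5 without IMF, SC, Inter or Kid, and IRF9 without IMF, SC, Inter or Omen. With mean centring EPSTI1, GBP5 and IRF9 missed it, with slide as a random block EPSTI1 and HERC5, and HERC5 with the replicate number as a block (-0.32) and in 24 of 59 alternatives in all.

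IMF differed most within a depot, and mainly downwards, with 517 of its 668 called probes (1.51% of all) lower and 151 (0.441%) higher in Wagyu x Angus. Contractile genes of smooth muscle, the cells of vessel walls, were prominent. Of 9 markers of smooth muscle and pericytes 7 were lower in IMF, with a list median of -1.92 against 0.02 for all probes. They were MYH11 (-2.51 ± 0.66 SE, adjusted p = 0.032), CNN1 (-2.45 ± 0.69), RGS5 (-2.42 ± 0.48), TAGLN (-2.11 ± 0.40), ACTA2 (-1.92 ± 0.44), LMOD1 (-1.75 ± 0.36) and SMTN (-1.67 ± 0.31), and the others were ACTG2 at -0.41 and DES at -0.09. The mean of the 9 markers was 3.35, 3.64, 3.78 and 3.88 on the Wagyu x Angus IMF arrays and 4.18, 5.44, 5.80 and 6.04 on the Hereford ones, without overlap, and 4.20 to 5.08 in Angus. All 7 missed the threshold on the 8 IMF arrays alone. The calls of MYH11 and CNN1 were lost in 10 and 12 of 45 alternatives, among them slide as a random block and 7 and 9 arrays left out singly, and that of ACTA2 in 4. In the other depots the list medians were 0.01 in Inter, 0.45 in Kid, -0.27 in Omen and -0.85 in SC, where 1 Hereford array had a marker mean of 4.36 and the other arrays 1.69 to 1.79, against 1.30 to 1.80 in Wagyu x Angus. In whole tissue fewer cells of a type and less of its RNA per cell cannot be told apart. The adipocyte markers moved the opposite way in IMF, from 3.97 to 4.70 in Wagyu x Angus and from 2.52 to 4.19 in Hereford, where 10 of 11 differences were positive and 1, that of CIDEC, was called (1.17, adjusted p = 0.023). Macrophage markers were at -0.15 to 1.21 against -0.86 to -0.15.

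**Figure D4:**
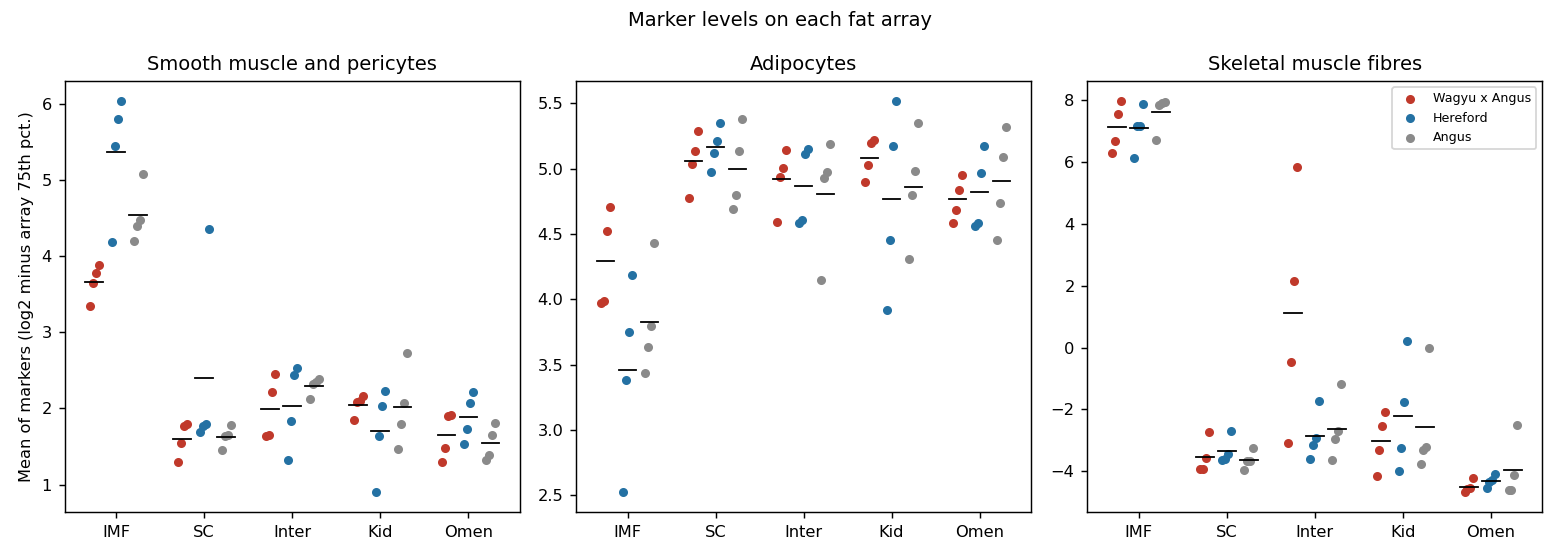
Mean log2 level of marker genes on each fat array, by depot and breed (9 smooth muscle and pericyte, 11 adipocyte and 12 skeletal muscle genes). Points are arrays and lines are means of 4. Smooth muscle markers are apart between Wagyu x Angus and Hereford in IMF alone, skeletal muscle markers are high on every IMF array, and 2 Wagyu x Angus Inter arrays are high in them.

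The IMF arrays were also laid out by breed, 3 of 4 Wagyu x Angus arrays on one slide, 3 of 4 Hereford arrays on another, and the last of each together with Angus on another. On the 12 IMF arrays with slide as a fixed term 0 probes were called by limma (2838 at an unadjusted p under 0.05, 490 of the 668 among them), although the differences of the 7 smooth muscle markers were no smaller (MYH11 -2.69, CNN1 -2.73, ACTA2 -2.24). All 668 had their sign there too, on the same arrays. In the single pair of arrays on a shared slide, which also entered the calls, MYH11 differed by -3.03 and TAGLN by -2.39. The greatest named IMF differences were GHRH (-4.20 ± 0.96 SE, adjusted p = 0.010), the hypothalamic growth hormone releasing hormone, LOC533657 and CALR3. A Hereford array at -6.29 for GHRH lay among the Wagyu x Angus values of -6.91 to -5.19, while the others were at -1.50, -0.46 and -0.13. The calls of GHRH and LOC533657 in IMF were each lost in 3 of 45 alternatives, in both genes with slide as a fixed term and without the Hereford IMF array on the shared slide. CALR3 was above background on 4 of 4 Wagyu x Angus arrays and 0 of 4 Hereford arrays, and thus at least 2.82-fold higher (adjusted p = 0.028), but its call was lost in 8 of 45 alternatives, the deposited value table among them. Leaving out the Hereford IMF array on the shared slide brought the count of IMF calls from 668 to 217, the lowest among all arrays left out.

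Whether the breed difference varied with depot was tested directly, but without a term for the steers that the depots share. The labels do not tie arrays to animals, so that no such term could be fitted. A low count of calls therefore does not show that the difference was alike in all depots. Of 34227 probes 1 passed (0.00292%), a probe without a gene name here. It was lower in Wagyu x Angus in IMF (-1.04) and SC (-0.31) and higher in Inter (0.02), Kid (0.55) and Omen (0.12), with an adjusted p of 0.038, and 2802 probes had an unadjusted p under 0.05. Among the named genes nearest to the threshold were CSRP1 (adjusted p = 0.053), ARHGAP6 (0.056), and CALD1, MYL4 and LPP (0.068 each). CSRP1, CALD1, MYL4 and LPP are genes of the cytoskeleton and of contractile cells and were lower in Wagyu x Angus IMF by -1.95, -0.80, -1.83 and -1.53. For CSRP1 the IMF arrays read 2.88, 3.13, 3.50 and 3.61 in Wagyu x Angus and 3.97, 5.34, 5.70 and 5.89 in Hereford, whereas in Kid they read 3.01, 3.13, 3.17 and 3.31 against 2.50, 2.55, 2.84 and 2.91.

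In Kid 26 of the 36 called probes were higher in Wagyu x Angus. RSPO3, a secreted enhancer of Wnt signalling, was the largest (3.06 ± 0.58 SE, adjusted p = 0.016), at 0.06, 0.14, 1.09 and 1.30 in Wagyu x Angus and -4.29, -3.28, -1.78 and -0.29 in Hereford, without overlap, and it was also higher across depots (1.14 ± 0.28), though not past the threshold without Kid (0.66). HOXD10, a position gene, was above background on 3 Wagyu x Angus and 0 Hereford Kid arrays and so at least 2.73-fold higher, and VIT, a matrix protein, was lower by -2.51 ± 0.53. The Kid count went from 36 to 0 without either of the 2 Hereford Kid arrays highest in macrophage markers or without 1 Wagyu x Angus Kid array. It went to 1013 and 1425 without the other 2 Hereford arrays. Of the 1013 probes 371 were higher and 642 lower in Wagyu x Angus, so that the main direction in Kid turned. In SC the calls were S100A5 (2.88 ± 0.44), the nitric oxide synthase NOS2 (-1.79 ± 0.34) and a probe without a name. In Inter they were STMN2 (4.03 ± 0.78), MYBPC2 (3.99 ± 0.79), ABCA4 (-1.33 ± 0.25), ANO1 (-1.16 ± 0.22) and PWP2 (-0.69 ± 0.13), of which the last pair was named after its values were seen. Slide and breed were partly entangled in Inter too, as in IMF. There 3 Wagyu x Angus arrays lay on a slide without Hereford, and 2 Hereford arrays on one without Wagyu x Angus. In SC 2 Hereford arrays lay on a slide without Wagyu x Angus. Many of these calls were close to the threshold. They were lost in 17 of 44 alternatives for HOXD10, in 10 of 44 for NOS2 and in 22, 31 and 15 of 45 for STMN2, MYBPC2 and ABCA4, the deposited value table among them for all 5 genes. MYBPC2 is a protein of fast muscle fibres and was high on the arrays that also held skeletal muscle RNA, and without the 2 richest of these 2 probes were called.

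Longissimus dorsi muscle (LD) gave a further view of the same breeds. On 8 LD arrays from steers given supplement after weaning, animals that are not those of the fat depots, 70 probes were called (0.205%), 54 higher and 16 lower in Wagyu x Angus. Of the 1198 probes called in fat 3 were called there as well, among them THNSL2 (0.70 in fat and 1.89 ± 0.40 SE in muscle). At an unadjusted p under 0.05 there were 205 of the 1198 (17.1%), where 11.3% of all probes had such a p. Of the 205, 175 had the direction seen in fat and 30 the other. The 175 are 14.6% of the called probes, against 7.22% of all probes with such a p and the fat direction. Without a limit on p the fat direction held at 67.4% of the called and 55.6% of all probes. NMRAL1 differed by 2.21 (unadjusted p = 0.031), FAM13C by 1.47 (0.025), JSP.1 by -1.54 (0.026) and ASIP by -1.66 (0.037) in this muscle, none of which passed adjustment, and BOLA-DQB by -2.95 ± 1.93 and CD1B by -0.88 ± 0.86. IGFLR1 (-0.33 ± 0.67), MAOB (-0.31 ± 0.53) and CIDEA (0.23 ± 0.37) had differences within their errors. The 4 supplement LD arrays of a breed lay on a slide of their own, so that slide and breed cannot be told apart there. By the methods the LD samples include steers of an earlier slaughter, of both diets, and the labels used here do not tell which arrays these are. On 16 pasture LD arrays, of which some steers may be among those that gave fat, 4936 probes were called (14.4%) and 32.8% of the 1198 had an unadjusted p under 0.05 against 31.2% of all probes, but 4 of the 8 arrays of each breed lay on slides, and were scanned on days, that the other breed did not share.

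**Figure D5:**
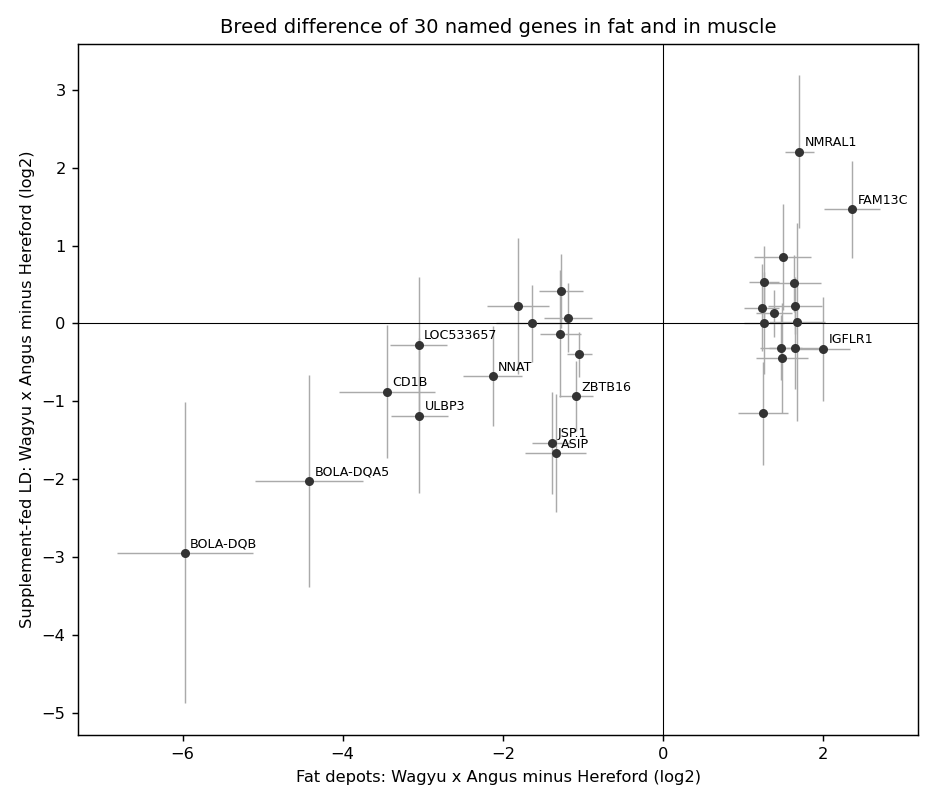
Wagyu x Angus minus Hereford difference (log2) of the 30 named genes in the fat depots (40 arrays) and in LD muscle of supplement-fed steers (4 arrays against 4), with standard errors. Gene names are given for the largest differences in fat and for genes at an unadjusted p under 0.05 in muscle. Of these NMRAL1 (1.70 and 2.21) and FAM13C (2.36 and 1.47) have positive differences in both tissues, which did not pass adjustment in muscle.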

How the data were processed

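Total RNA from bovine tissue was labelled with Cy3 and hybridised to 4x44K bovine arrays in 1 colour. For every array the authors deposited its scanner file (Feature Extraction 10.7.3.1), whose processed signal is a background-subtracted spot intensity on a linear scale. They also deposited a value table on a log2 scale, which matched log2 of the median signal minus local background, floored at 1, with 99.9% of values within 0.01. That table was used as an alternative. No spot was saturated, and the number of arrays limits the precision.

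Spots of a probe were averaged after control and outlier spots were left out, and log2 of the processed signal was centred on the 75th percentile of each array. All 34227 probes tested entered limma 3.58.1 (R 4.3.3; lmFit, eBayes) on 60 fat arrays with breed and depot as terms, or with 1 term for each breed and depot for the differences within a depot and their dependence on depot. Standard errors are those of the fit. The Benjamini-Hochberg adjustment ran over all probes, with a threshold of 0.05. Of the probes 62.7% had a gene name, from RefSeq accessions or the study's supplementary annotation. Symbols of multigene families (BOLA, CD1, ULBP, GBP, CYP, S100, BPIFA2) are uncertain, because a probe may read near-identical copies. A probe was given a bound where 0 arrays of a group were well above background. Only the labels set the groups.

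The text names the 15 genes with the largest positive and the 15 with the largest negative difference among called probes of the same sign in all 5 depots, up to 4 called members of each gene list (1 probe a gene, the brightest), the 3 largest in each depot and the 6 nearest to dependence on depot, of which 1 is not reported here. Lists and members were chosen with earlier results of these data known. Tests on simulated data recovered 58% of changes of 0.5 and 85% of changes of 1 across depots, and 13% and 42% in IMF. The simulated noise was independent between arrays, without shared steers or slide effects. These shares are therefore a check of the fit and not the power of the real design. Alternatives were other normalizations, filters and fits, each array or depot left out, and terms for replicate number, slide or scan day. Normexp used the median signal. Sequences were not used here.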

Additional observations from a re-analysis of the deposited data

Results flagged for a closer look

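Samples that stood apart from the other 3 of their depot and breed were looked for by Dixon's ratio in 180 groups of 4, and 14 were found, where chance alone marks about 1 group in 20. Among Wagyu x Angus arrays they were FAM13C in Omen at -3.90, IGFLR1 in SC at -3.22 and in Kid at -3.70, CIDEA in Inter at 1.91, CD1B in IMF at -0.75, NNAT in Inter at 1.18, ELOVL5 in Omen at 4.94 and CSRP1 in SC at 3.35. Among Hereford arrays they were NMRAL1 in SC at 2.33, BOLA-DQB in IMF at -8.61 and in Kid at -8.26, BOLA-DQA5 in Inter at -6.77, ULBP3 in Kid at -3.55, and the mean of the smooth muscle markers in SC at 4.36. For BOLA-DQB, BOLA-DQA5, ULBP3 and IGFLR1 the sample that stood apart was at the level of the other breed.

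The breed difference varied with depot at 1 probe without a gene name here (limma, adjusted p = 0.0379), from -1.04 in IMF to 0.55 in Kid.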

How the results depend on the processing

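Across depots the count of 1198 calls lay between 952 and 1479 with each array left out. It was 732 with mean centring, 3052 with array weights, 430 with slide as a fixed term, and 495, 529, 773 and 713 without IMF, SC, Inter and Omen. In IMF 161 probes were called with its 8 arrays alone and 0 with slide as a fixed term on 12 arrays, against 668, and 217 to 886 with an array left out (217 and 326 without the Hereford arrays of slide 18 and of slide 9 position 3, and 419, 419 and 382 without the Wagyu x Angus arrays of slide 8). In SC the count of 3 was 1 from the deposited value table, 0 from 8 arrays alone and 1 to 6 with an array left out. In Inter the count of 5 was 13 with quantile normalization, 0 from the value table, 0 from 8 arrays, 0 with slide as a random block, 2 without the 2 arrays rich in muscle RNA (this one, slide as a fixed term, and slide as a random block within depots were chosen after seeing the data) and 0 to 161 with an array left out (161 and 101 without the Wagyu x Angus Inter arrays of slide 5 positions 3 and 1). In Kid the count of 36 was 15 with quantile normalization, 0 from 8 arrays, 63 with slide as a random block and 0 to 1425 with an array left out (1425 and 1013 without the Hereford Kid arrays of slide 22 position 3 and slide 4, 0 without those of slide 21 and slide 22 position 4, 14 without the Wagyu x Angus Kid array of slide 21 position 4, 22 without a Wagyu x Angus IMF array), and the value table split its calls evenly, with 17 higher and 17 lower. In Omen the count of 1 was 0 with quantile normalization, 0 from the value table, 7 from 8 arrays and 0 to 5 with an array left out. Dependence on depot gave 7 probes with quantile normalization, 0 from the value table and 0 to 151 with an array left out (151 without an IMF, 76 without an Inter, 56 without an SC and 46 or 29 without a Kid array). In supplement LD the count of 70 was 12 from the value table (11 higher, 1 lower) and 13 to 264 with an array left out. Apart from the slide and depot terms above, the causes were not tested. Across depots, signs turned for MZB1 (0.0133), KRT18 (-0.11) and HBB (0.00767) without IMF, MYL1 (-0.20) without Inter and ATF3 (0.0391) without Kid, none of them called.

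The replicate number in the labels equals the position of the array on its slide and does not name an animal. Up to 3 arrays of a group share a number. Arrays of 2 breeds with one number in a depot had a median correlation of 0.02 of their deviations from the group means (range -0.33 to 0.48, 49 pairs), and 10 of 60 arrays were closest to an array of their own number. With the replicate number, and thus the slide position, as a block 1142 probes were called.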
